A study of Homo sapiens with 12 samples.

Results

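MIR204 and MIR211 are the precursor genes of miR-204 and miR-211, a pair of microRNAs with the same seed that are expressed in pigmented cells. Of the 1881 precursor rows counted in each library, these 2 were taken by name, and MIR204 was selected on a difference between the lines that was already known. A375 is a human melanoma line that responds to dabrafenib, an inhibitor of mutant BRAF, and A375-BIR is its resistant derivative, selected by culture in rising doses of the drug. Both lines were grown in RPMI with fetal bovine serum and kept for 48 h either in the vehicle, 0.1% DMSO, or in 200 nM dabrafenib. Small-RNAseq gave 3 libraries for each of the 4 groups, A375 in DMSO, A375 in dabrafenib, A375-BIR in DMSO and A375-BIR in dabrafenib. A375-BIR is a single derivative of a single line, so what it shows is not separable from the history of that culture. The labels call the 3 libraries of a group biological replicates without saying how they were separated, and p-values measure only the spread between these libraries.

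A microRNA guides a silencing complex to messenger RNAs through its seed, the bases that follow the first base at the 5′ end, and microRNAs with the same seed are expected to share many targets. MIR211 lies within TRPM1, a melanocyte gene that the pigment cell regulator MITF is known to activate, and MIR204 lies within the related channel gene TRPM3. Both have been studied in melanocytes, in the retinal pigment epithelium and in melanoma, including melanoma cells under BRAF inhibition.

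The mature sequences are shown because the shared seed is what joins the members. They were taken from RefSeq (GRCh38.p14), with bases 2 to 8 in capitals.
hsa-miR-204-5p: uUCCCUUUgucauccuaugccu
hsa-miR-211-5p: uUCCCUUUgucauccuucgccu
hsa-miR-204-3p: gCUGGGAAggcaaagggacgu
hsa-miR-211-3p: gCAGGGACagcaaaggggugc
The 5p arms were identical at 20 of 22 bases, with the first 16 the same, and differed by A17U and U18C, counted from 1 at the 5′ end with the base of miR-204 first. The 3p arms were identical at 15 of 21 bases, and their seeds were not the same. Of 2545 mature miRNAs in the RefSeq table, only these 2 had bases 2 to 8 of miR-204-5p. With bases 2 to 7 alone there was 1 more, hsa-miR-623, which reads aUCCCUUGcaggggcuguugggu and whose precursor MIR623 had 0 counts in all 12 libraries. Of the precursors with this seed in their 5p arm, MIR204 and MIR211 alone had counts in these libraries.

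In the hairpins, the capitals mark the 5p and then the 3p arm.
MIR204: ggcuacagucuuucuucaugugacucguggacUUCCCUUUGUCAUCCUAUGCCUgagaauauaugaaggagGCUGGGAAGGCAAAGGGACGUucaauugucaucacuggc
MIR211: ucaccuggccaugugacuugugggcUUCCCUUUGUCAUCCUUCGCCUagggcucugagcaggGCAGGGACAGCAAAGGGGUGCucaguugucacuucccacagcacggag
Each hairpin is 110 bases long, and aligned end to end they were identical at 76 of 119 columns (63.9%), so that outside the arms the precursors can be told apart more easily than within the 5p arm. RSEM, the program the authors counted with, divides a read among precursors that could have given it, and such a row then holds fractions. All 12 values of MIR204 and all 12 values of MIR211 were exactly whole. Which arm a read came from is not resolved, because counts were deposited by precursor.

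MIR204 (ENSG00000207935) lies at chr9:70809975-70810084 of hg38 on the minus strand, and MIR211 (ENSG00000207702) at chr15:31065032-31065141, also on the minus strand. In GENCODE v44, 26 of the 29 transcripts of TRPM3 span MIR204 and 7 of the 11 transcripts of TRPM1 span MIR211, on the same strand as the hairpin. None of these transcripts has an exon there, which makes both members intronic. The nearest listed precursors of MIR204 are MIR4477B and MIR7-1, 6990.3 and 13159.7 kb away, and those of MIR211 are MIR4509-3 and MIR1233-1, 2574.2 and 3316.9 kb away. Neither member therefore stands in a cluster with another counted precursor. Messenger RNA of the host genes was not analysed here.

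The start of TRPM1 is shown because MITF is the known activator of the host of MIR211. Of the RefSeq windows from 250 bases before to 50 bases after an annotated start, both of TRPM1 hold the E-box letters CATGTG (searched on both strands) and neither of TRPM3 does. The letters CACGTG, and the longer form TCATGTG that is tied to MITF, stand in none of the 4 windows. Among 35116 such windows of human genes, 11.1% hold CATGTG, 7.3% hold CACGTG and 2.9% hold TCATGTG. The TRPM1 window at chr15:31101676-31101975 (GRCh38.p14, minus strand) follows, with the match in capitals as it reads on the strand of the gene.
TRPM1: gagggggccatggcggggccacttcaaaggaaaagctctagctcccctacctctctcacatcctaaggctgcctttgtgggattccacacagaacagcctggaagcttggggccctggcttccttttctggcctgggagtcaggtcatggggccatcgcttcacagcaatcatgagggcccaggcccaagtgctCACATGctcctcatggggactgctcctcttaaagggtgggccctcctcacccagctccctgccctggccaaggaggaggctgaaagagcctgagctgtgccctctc
A match is a description of the letters only, and no binding was measured.

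The libraries held few counts in all. Totals of expected counts were between 77264 and 121802 in A375 in DMSO, 36955 and 51532 in A375 in dabrafenib, 106427 and 122792 in A375-BIR in DMSO, and 35070 and 59899 in A375-BIR in dabrafenib. MIR204 had 1265 counts over the 12 libraries, 0.138% of all counts, and MIR211 had 44. CPM (TMM-normalized counts) are scaled to the library total after filtering, multiplied by its TMM factor, the trimmed mean of M values by which edgeR fits libraries to each other. The 3 counts that a count of 0 still allows came to between 20.7 and 35.9 CPM in the DMSO libraries and between 45.1 and 99.7 CPM in the dabrafenib libraries. Such limits and the intervals below cover counting error only, since PCR copies are not independent molecules.

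MIR204 had 158, 212 and 154 counts in the 3 libraries of A375 in DMSO, which is 1892, 1609.7 and 1619 CPM. In A375 in dabrafenib it had 226, 302 and 117 counts, or 5893, 8521 and 3888 CPM. By CPM all 3 dabrafenib libraries stood above all 3 DMSO libraries, while the raw counts overlapped, the dabrafenib libraries having lower totals. In A375-BIR in DMSO MIR204 had 18, 13 and 20 counts, or 163, 102 and 138 CPM. In A375-BIR in dabrafenib it had 9, 12 and 24 counts, or 246, 180.5 and 485 CPM. Here too the raw counts of the treatments overlapped and the CPM did not.

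MIR211 was counted far less. It had 0, 4 and 3 counts in A375 in DMSO (0, 30.4 and 31.5 CPM) and 5, 4 and 9 counts in A375 in dabrafenib (130.4, 113 and 299 CPM). In A375-BIR it had 1, 3 and 4 counts in DMSO (9.06, 23.5 and 27.7 CPM) and 3, 4 and 4 counts in dabrafenib (81.9, 60.2 and 80.9 CPM). In both lines the CPM of the dabrafenib libraries lay above those of the DMSO libraries, on raw counts that touched or overlapped. In DMSO 4 of the 6 libraries held 3 counts or fewer, so a level of MIR211 in DMSO is only bounded at this depth. In A375-BIR in dabrafenib the counts of 3, 4 and 4 were hardly above those in DMSO. Replicate 1 there, at 81.9 CPM, stood at the limit that a count of 0 allows, so that level is poorly measured too.

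**Figure D1:**
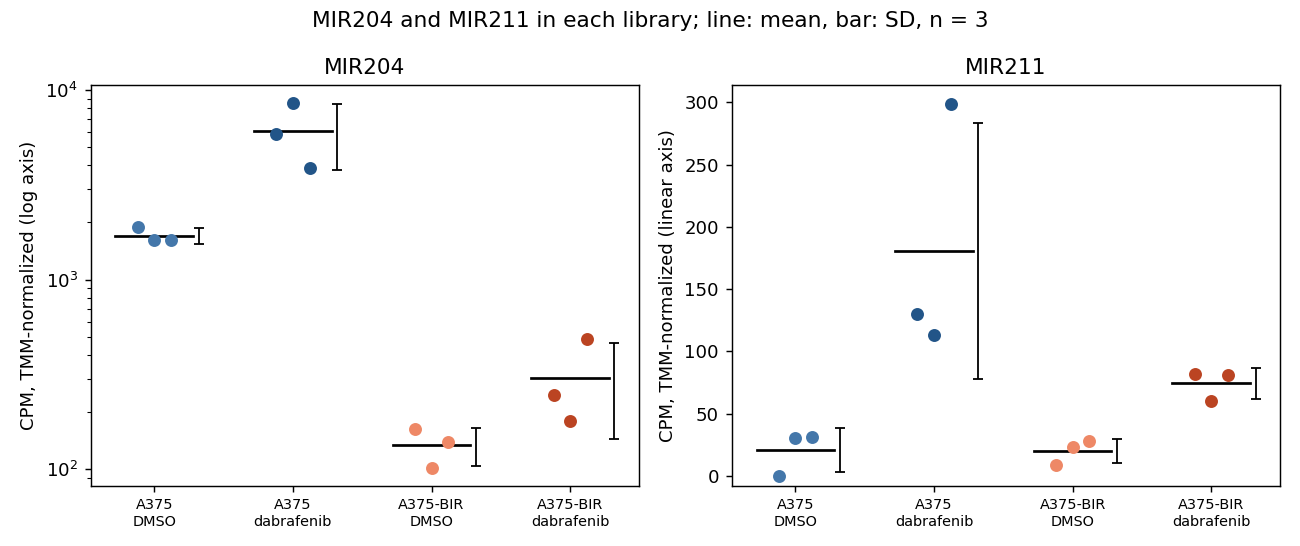
CPM (TMM-normalized) of MIR204 on a log axis and of MIR211 on a linear axis, 1 point for each library, with the mean (line) and SD (bar) of each group of 3. MIR204 is at 1609.7 CPM or more in every A375 library and at 485 CPM or less in every A375-BIR library, and in each line both members are higher in all dabrafenib libraries than in all DMSO libraries.

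The order of the MIR204 levels was A375 in dabrafenib with 6100.5 ± 2323 CPM, A375 in DMSO with 1707 ± 160.1, A375-BIR in dabrafenib with 304 ± 161 and A375-BIR in DMSO with 134 ± 30.7 (SD, n = 3 each). Its place among all precursors of a library, by count, moved with these levels: 21 to 31 and 40 to 47 for A375 under dabrafenib and DMSO, 83 to 140 and 131 to 158 for A375-BIR. The libraries of A375-BIR in dabrafenib varied most, with an SD of 52.8% of their mean, against 9.38% in A375 in DMSO. MIR211 was highest in A375 in dabrafenib, 181 ± 103 CPM, followed by A375-BIR in dabrafenib with 74.3 ± 12.3, and in DMSO it stood at 20.6 ± 17.9 in A375 and at 20.1 ± 9.77 in A375-BIR (mean ± SD of 3). The last 2 did not differ beyond their spread. Pooled over a group, MIR211 came to 22.6 CPM in A375 in DMSO (95% exact Poisson interval 9.07 to 46.5) and to 20.9 CPM in A375-BIR in DMSO (9.03 to 41.2).

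In the drug-sensitive line, dabrafenib was compared with DMSO to ask how the members respond to BRAF inhibition. MIR204 rose 3.58-fold in dabrafenib, at a log2 fold change of 1.84 with a standard error of 0.29, and edgeR's quasi-likelihood test put its FDR at 2.89e-04. It was 1 of 32 precursors among 175 tested that rose at an FDR under 0.05, a background of 18.3%, and 14 precursors had a higher log2 fold change. The 95% interval of the log2 fold change was 1.21 to 2.47. No alternative ended the call, and the FDR lay between 5.79e-08 and 2.52e-03 over 23 of them. The A375 libraries in dabrafenib also entered the difference on which MIR204 was selected, so the fold change and its FDR are not independent of the choice.

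The size of this response depended on the scaling of the libraries. The TMM factors were between 0.693 and 0.822 in A375 in dabrafenib and between 1.04 and 1.19 elsewhere, and with total counts alone the log2 fold change of MIR204 was 1.31. The median over the 175 precursors moved with it, from 0.14 to -0.36, so that MIR204 stood 1.70 above the median with TMM and 1.67 above it with total counts. Of all calls in this comparison 32 were higher and 12 lower with TMM, 18 and 44 with total counts and 23 and 23 with DESeq2's size factors. Precursors with a stretch of at least 18 bases found in the 45S pre-rRNA made up 20.9% to 26.3% of each A375 library in dabrafenib and 3.22% to 5.59% of each A375 library in DMSO. Without these 17 rows, an alternative chosen after the data were seen, MIR204 had a log2 fold change of 1.69 (FDR = 1.53e-03 from the same edgeR test).

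MIR211 had too few counts for the filter on low counts, and its CPM were compared by an exact permutation test. In A375 its pooled level was 7.68-fold higher in dabrafenib than in DMSO (95% counting interval 3.06 to 21.8, on 18 and 7 counts). The exact two-sided permutation test gave p = 0.1, the smallest that 3 libraries against 3 allow. A wider filter keeps a precursor that reaches 1 CPM in 3 libraries and so admitted 538. At these library totals 1 count is already more than 1 CPM, so rows with 1 count in 3 libraries were admitted. With this filter edgeR's quasi-likelihood test put MIR211 at 2.53 on the log2 scale (standard error 0.82, FDR = 0.0252). Over the alternatives that could test it, in edgeR or DESeq2, the FDR was between 0.0208 and 0.0340. That filter called 19 precursors higher, a background of 3.53%, and MIR204 was another of them. Without A375 dabrafenib replicate 3, which alone holds 9 of the 18 counts, the pooled log2 ratio of MIR211 was 2.43 in place of 2.94.

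In the resistant line, the same comparison asks whether the members still respond. MIR204 was 304 ± 161 CPM in dabrafenib and 134 ± 30.7 CPM in DMSO (SD, n = 3 each), higher in 3 of 3 libraries. Its log2 fold change was 1.16 (standard error 0.41, 95% interval 0.27 to 2.04), and at an FDR of 0.0632 in edgeR's quasi-likelihood test it did not pass the threshold. At that threshold 23 of 175 precursors rose, 13.1%. The A375-BIR libraries also entered the difference on which MIR204 was selected, so this fold change and its FDR are not independent of the choice either.
This result lay close to the threshold on counts of 9 to 24 per library, and several settings moved it across. It passed with the wider filter (0.94, FDR = 0.0434 in edgeR, but 0.95 and FDR = 0.0683 with the replicate number as a block, chosen after the data were seen), with MIR204 and MIR211 summed into 1 row (1.27, FDR = 0.0267), and without A375-BIR dabrafenib replicate 2 (1.48, FDR = 0.0330), A375 dabrafenib replicate 2 (1.16, FDR = 0.0468) or A375 dabrafenib replicate 3 (1.16, FDR = 0.0456). Without A375-BIR dabrafenib replicate 3, the highest library, the log2 fold change was 0.62 (FDR = 0.342). Over all alternatives the FDR was between 0.0267 and 0.342. The rows like 45S pre-rRNA held between 14.4% and 16.9% of the counts in A375-BIR in dabrafenib and between 2.65% and 4.57% in A375-BIR in DMSO, and without them MIR204 was at 1.16 (FDR = 0.0832).

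MIR211 in A375-BIR was 3.45-fold higher in dabrafenib than in DMSO by pooled CPM (95% counting interval 1.26 to 9.87, on 11 and 8 counts), again with p = 0.1 from the exact permutation test, the smallest possible. With the wider filter its log2 fold change was 1.54 (standard error 0.86, FDR = 0.282 in edgeR), where 25 of 538 precursors were called higher (4.65%). When treatment was exchanged within each line over both lines together, the exact two-sided permutation test of MIR211 gave p = 0.005, the smallest that its 400 arrangements allow. The mean difference was 107 CPM, and 6 of 6 dabrafenib libraries stood above the DMSO libraries of their line.
Separation of all dabrafenib libraries above all DMSO libraries was found for 79 of the 538 precursors in A375 (14.7%), for 63 in A375-BIR (11.7%) and for 36 in both lines (6.69%), and both members were among the 36.

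**Figure D2:**
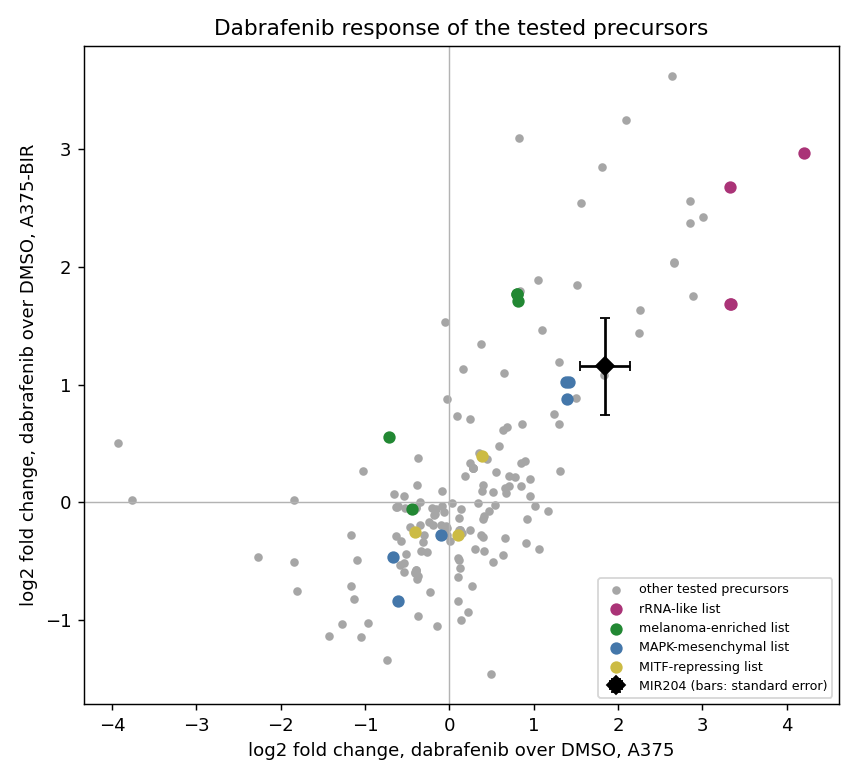
Log2 fold change of dabrafenib over DMSO in A375 (horizontal) and in A375-BIR (vertical) for the 175 tested precursors, with the lists in colour and MIR204 as a diamond with its standard errors. MIR204 lies at 1.84 and 1.16, to the right of most precursors and below the rRNA-like rows at the upper right.

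Whether the lines differ in their response was tested directly. The log2 difference for MIR204, A375 over A375-BIR, was 0.69 (standard error 0.51, 95% interval -0.41 to 1.78, FDR = 0.560 in edgeR). It was 0.19 with total counts, 0.46 and 0.45 with the wider filter without and with the replicate block, 0.36 and 0.43 without A375-BIR dabrafenib replicate 2 and A375-BIR DMSO replicate 1, 0.37 without A375 dabrafenib replicate 2 and 1.22 without A375-BIR dabrafenib replicate 3. A response in A375 alone is therefore not shown, and the interval holds differences of up to 1.78 in favour of A375. Among the 175 precursors 5 were called higher for this difference (2.86%) and 1 lower, against 3 higher and 5 lower with total counts, and MIR204 was called with neither. Since the libraries of both lines entered the difference on which MIR204 was selected, the difference in response of MIR204, like its response in each line, is not independent of the choice. The pooled log2 ratios of MIR211 were 2.94 in A375 and 1.79 in A375-BIR, and with the wider filter the difference between them was 0.99 (standard error 1.24, FDR = 0.865 in edgeR).

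**Figure D3:**
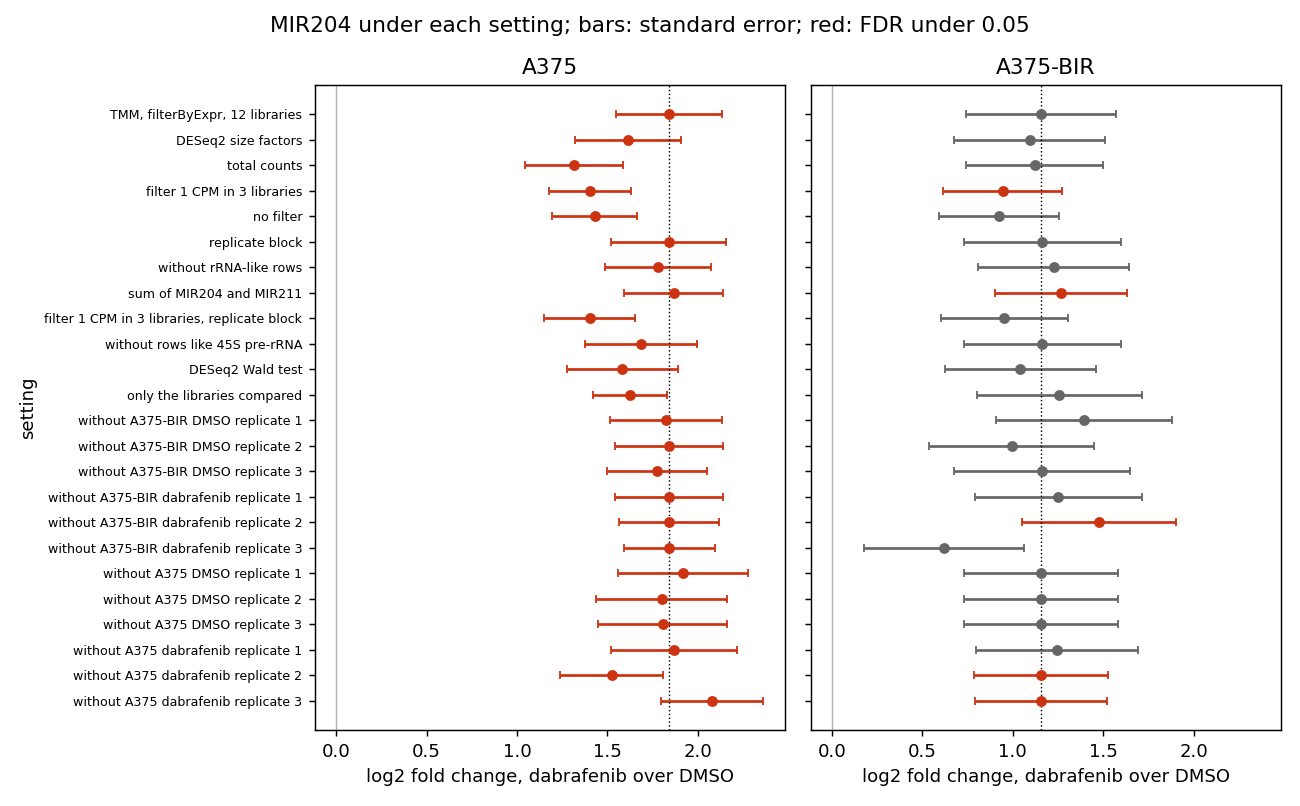
Log2 fold change of MIR204, dabrafenib over DMSO, in A375 (left) and A375-BIR (right) under each setting, with standard errors, red where the FDR is under 0.05. Every value in A375 is red, between 1.31 and 2.08, and 5 alternatives in A375-BIR are red, where the values run from 0.62 to 1.48.

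Between the lines the values are given as a description with no test because MIR204 was chosen by its difference between the lines. In DMSO, A375 held 12.6-fold more MIR204, a log2 fold change of 3.66 (standard error 0.35), and 5 precursors had a higher value. In dabrafenib it was higher by 4.34 (standard error 0.36), 20.3-fold, the highest value of the 175 precursors. In DMSO 28 of 175 precursors (16%) were called higher in A375 and 53 lower, and in dabrafenib 42 (24%) higher and 39 lower. With total counts 24 precursors were called higher in dabrafenib and 59 lower. With DESeq2's size factors 38 were called higher in DMSO and 43 lower. The lowest A375 library, at 1609.7 CPM, was above the highest A375-BIR library, at 485 CPM, whatever the treatment.
For MIR211 in DMSO the groups overlapped and the pooled ratio of A375 to A375-BIR was 1.08 (95% counting interval 0.333 to 3.40, on 7 and 8 counts). A difference between the members was not tested. In dabrafenib MIR211 was 2.40-fold higher in A375 (1.07 to 5.63, on 18 and 11 counts), where with total counts in place of TMM the groups overlapped.

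The make-up of the pair is also a description with no test, since it restates in large part the difference on which MIR204 was chosen, and its intervals cover counting alone. MIR211 gave 7 of the 531 counts of the pair in A375 in DMSO (1.32%, 95% Clopper-Pearson interval 0.532% to 2.70%) and 18 of 663 in A375 in dabrafenib (2.71%, interval from 1.62% to 4.26%), or 9 of 537 (1.68%) without A375 dabrafenib replicate 3. In A375-BIR it gave 8 of 59 counts in DMSO (13.6%, 6.04% to 25%) and 11 of 56 in dabrafenib (19.6%, 10.2% to 32.4%). By library the share was between 0% and 7.14% in A375 and between 5.26% and 25% in A375-BIR, so that only A375 dabrafenib replicate 3 reached into the range of A375-BIR. In each of the 12 libraries MIR204 had more counts than MIR211.

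**Figure D4:**
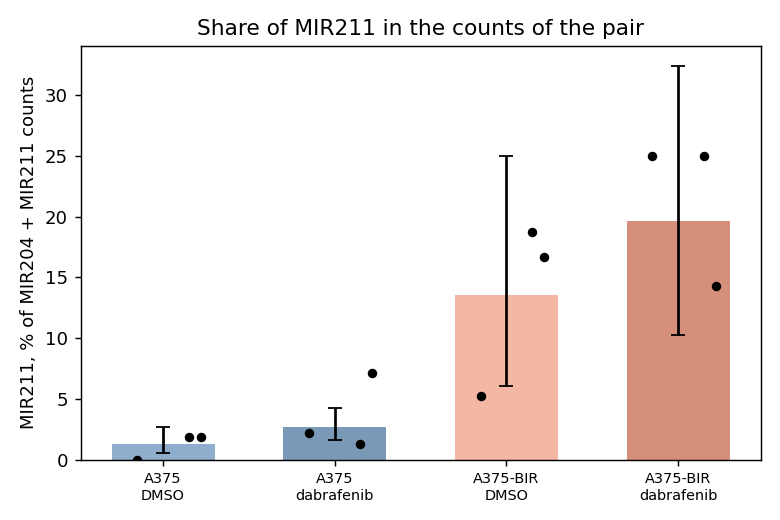
Share of MIR211 in the counts of MIR204 and MIR211 together, in percent, with bars for the pooled share of each group, error bars for its 95% Clopper-Pearson interval and points for the 3 libraries. The pooled share is 1.32% and 2.71% in A375 and 13.6% and 19.6% in A375-BIR.

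Over the 12 libraries, the 5 tested precursors most like MIR204 by Pearson correlation of log2 CPM, out of 174, were MIR509-1 and MIR509-2 (0.965 each, with identical values, since copies share reads), MIR509-3 (0.955), MIR199B (0.942) and MIRLET7B (0.932). The 3 least like it were MIR222 (-0.989), MIR182 (-0.963) and MIR31 (-0.963). The libraries fall into lines and treatments, and the correlations were nearer to 0 for deviations from group means. There r was -0.20 for MIR509-1, -0.24 for MIR509-3, 0.43 for MIR199B and 0.34 for MIRLET7B. It was -0.14 for MIR31, -0.43 for MIR182 and -0.73 for MIR222. Much of the last value came from A375-BIR dabrafenib replicate 3, the highest of its group for MIR204 and the lowest for MIR222. In A375 in DMSO, replicate 1 was the highest and replicate 2 the lowest for both. A movement of MIR222 against MIR204 within each group is therefore not shown. The miR-509 copies belong to a cluster on the X chromosome known from melanocytes and testis. MIR509-1 had 378 ± 16.7 CPM in A375 in DMSO, 665 ± 107 in A375 in dabrafenib, 12.3 ± 3.25 in A375-BIR in DMSO and 40.1 ± 14.8 in A375-BIR in dabrafenib (SD, n = 3 each), the same order as MIR204. MIR222, a microRNA known to rise with MAPK signalling, had the opposite order, 4531 ± 117 CPM in A375 in DMSO, 2856 ± 89.0 in A375 in dabrafenib, 16260.3 ± 314 in A375-BIR in DMSO and 11763 ± 1920.0 in A375-BIR in dabrafenib (SD, n = 3 each).

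**Figure D5:**
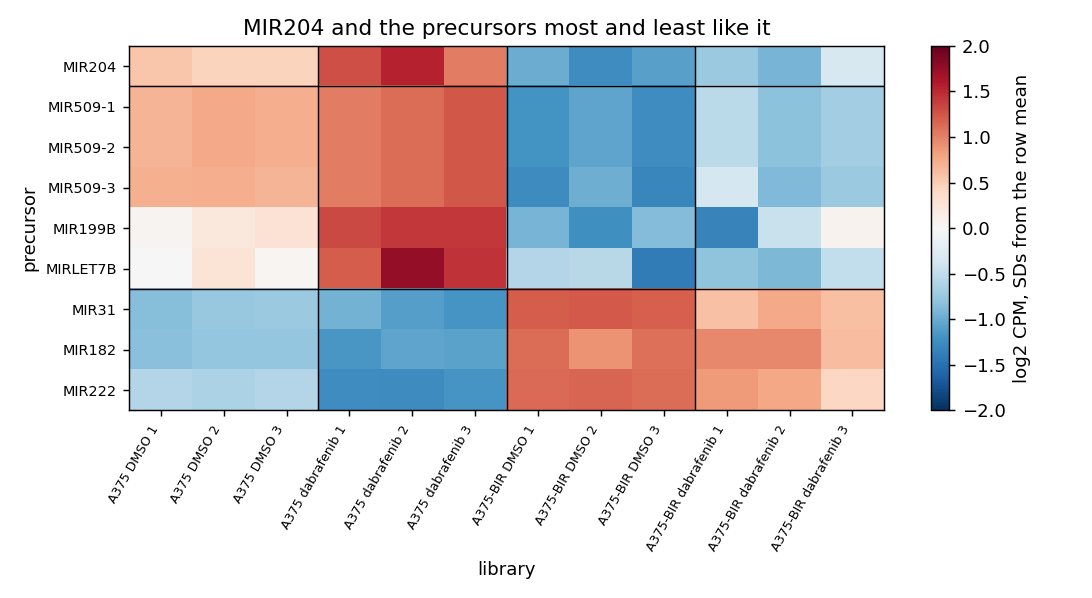
Log2 CPM of MIR204, of the 5 precursors most like it and of the 3 least like it in the 12 libraries, each row in SDs from its own mean. MIR204 is highest in A375 dabrafenib replicate 2, and MIR31, MIR182 and MIR222 are low where MIR204 is high.

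MIR204 was set beside microRNAs with a known link to the pigment lineage or to the drug's pathway. Of 9 precursors of microRNAs described as acting on the mRNA of MITF, 3 were tested, and with TMM none of them passed the threshold for dabrafenib in either line. Of all 175 precursors 44 passed in A375 and 36 in A375-BIR, so that none of 3 passed is no result about the list. The medians of the list were 0.10 in A375 and -0.25 in A375-BIR, beside 0.14 and -0.04 for all 175. MIR182 passed as lower in A375 with total counts (-0.91, FDR = 2.37e-03 in edgeR) and with DESeq2's size factors (-0.61, FDR = 0.0114), and with total counts MIR148A and MIR148B changed sign in A375, MIR148B with DESeq2's size factors too, where MIR204 stayed higher. MIR182 was lower in A375 than in A375-BIR in DMSO by a log2 fold change of -2.42, MIR148B was lower at -0.96 and MIR148A higher by 2.11 (standard error 0.17, 0.35 and 0.28). In this comparison 28 of all 175 precursors were called higher in A375 and 53 lower. MIR204 thus differed between the lines in DMSO in the direction of 1 of the 3, MIR148A.

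Of 18 melanocyte- and melanoma-enriched precursors, 5 were tested. In A375 in dabrafenib, where 32 of all 175 were called higher and 12 lower, the higher ones were the 3 copies of miR-509 (0.80, 0.80 and 0.81), of which MIR509-1 and MIR509-2 hold identical counts, and 1 was lower, MIR146A (-0.71, standard error 0.19, FDR = 0.0149 in edgeR), so MIR204 and MIR146A, both far higher in A375 than in A375-BIR, moved in opposite directions under dabrafenib there. In A375-BIR none of the 5 passed in edgeR's quasi-likelihood test, where 23 of all 175 were called higher and 13 lower, so this is no result about the list. The copies of miR-509 were at 1.77, 1.77 and 1.71, MIR146A at 0.56 and MIR183 at -0.06, beside a median of -0.04 over all 175. The copies of miR-509 stayed higher in A375 with total counts, at 0.30, 0.30 and 0.31, and with DESeq2's size factors, at 0.59, 0.59 and 0.60, but passed with neither, in contrast to MIR204 at 1.31, and MIR146A passed with each scaling.

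Of 7 precursors tied to MAPK signalling or a mesenchymal state, 6 were tested and MIR214 had 0 counts. In A375 in dabrafenib, beside the same 32 and 12 of 175, the 3 copies of miR-199, rows with nearly the same counts, were higher, MIR199B by 1.39 (standard error 0.36, FDR = 0.0108 in edgeR), and MIR221 and MIR222 were lower by log2 fold changes of -0.61 and -0.67 (FDR = 0.0283 and 3.78e-03), while MIR21 did not pass. In A375-BIR, where 23 of all 175 were called higher and 13 lower, only MIR221 and MIR222 passed, at -0.84 and -0.47 (FDR = 6.61e-03 and 0.0314 in edgeR). With total counts the direction of the miR-199 copies in A375 stayed and none of the 3 passed (MIR199B 0.89, FDR = 0.0733 in edgeR), with DESeq2's size factors MIR199B alone passed (1.19, FDR = 0.0209), while MIR221 and MIR222 passed as lower with each scaling and MIR21 as lower with total counts only (-0.59). MIR204 in A375 therefore rose where MIR221 and MIR222 fell.

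The 4 rRNA-like rows of the list that could be tested, MIR663A, MIR663B, MIR3648-1 and MIR3648-2, were higher in dabrafenib in both lines, with medians of 3.33 in A375 and 2.18 in A375-BIR. MIR3648-1 and MIR3648-2 hold nearly the same counts and are not separate results. MIR663A at 4.21, MIR3648-1 at 3.34 and MIR663B at 3.33 were the highest log2 fold changes past the threshold without overlap of the groups in A375, against 1.84 for MIR204, and MIR365B (-2.27), MIR4521 (-1.85) and MIR196A2 (-1.84) the lowest. In A375-BIR the highest were MIR4657 (3.63), MIR4647 (3.25) and MIR1225 (3.10), with standard errors of 1.06, 0.85 and 0.67. Each of them averaged 20.1 CPM or less in A375-BIR in DMSO, where a count of 0 still allows 20.7 CPM or more. In A375-BIR in dabrafenib their means were 200.5 CPM or less with SDs of 140 CPM or more, so these fold changes are poorly measured. The lowest in A375-BIR were MIR31 (-1.34), MIR7-1 (-1.14) and MIR15B (-1.14). MIR7-1, the nearest listed precursor on its side of MIR204, was thus lower in A375-BIR in dabrafenib while every library there held more MIR204 by CPM than the DMSO libraries. The 5 precursors with the most counts, MIRLET7B, MIRLET7I, MIRLET7A1, MIRLET7A2 and MIRLET7A3, hold between 7.61% and 16.8% of all counts each, against 0.138% for MIR204.

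The lines were checked against microRNAs that mark other cell types, since in bulk RNA fewer cells of a type and less RNA per cell cannot be told apart. MIR204 and MIR211 together reached between 125 and 8633 CPM in a library. The liver marker MIR122, the neuronal MIR124-1, MIR124-2 and MIR124-3, the red cell marker MIR451A and the epithelial MIR429 and MIR203A had 0 counts in all libraries. Summed over their list, the 5 blood cell precursors reached at most 282 CPM (most counted MIR150, 47 counts in all), the 7 epithelial ones 263 CPM (MIR205, 62 counts), the 6 neuronal ones 344 CPM (MIR9-1, 63.8 counts), the 5 muscle ones 63.1 CPM (MIR1-2, 7.11 counts) and the endothelial MIR126 62.2 CPM (25 counts). The fibroblast and smooth muscle pair MIR143 and MIR145 reached the most, between 144 and 1072 CPM (MIR143, 363 counts). MIR143 was higher in dabrafenib in A375-BIR by 1.80 (standard error 0.41, FDR = 6.61e-03 in edgeR) and MIR150 by 2.85 (standard error 0.83, FDR = 0.0281), and their part in the results for MIR204 and MIR211 was not tested. In A375 each library held more of MIR204 than of any of these lists, while in A375-BIR the summed CPM of MIR143 and MIR145 exceeded MIR204 in both treatments. Against these lists of other cell types alone, the pigment lineage pair led in A375 and not in A375-BIR. This restates in large part the difference on which MIR204 was chosen and is a description with no test. MIR146A of the melanoma-enriched list stood above MIR204 in A375 in both treatments (24296 and 14834 CPM on average).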

How the data were processed

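Small RNA of 12 libraries, 3 for each line and treatment, had been sequenced after a Lexogen small RNA preparation. Per the labels, the authors trimmed the reads, removed those of rRNA and phiX, and deposited expected counts from RSEM 1.2.25 on hg38, 1 row for each of 1881 miRNA precursors. MIR204, MIR211 and the lists were chosen with earlier results of these data known. The counts were rounded, filtered with edgeR 4.0.16 (R 4.3.3) by filterByExpr, which left 175 precursors, scaled by TMM and fitted by glmQLFit with 1 mean for each group of line and treatment. Contrasts were tested by glmQLFTest with Benjamini-Hochberg adjustment over all tested precursors (threshold 0.05), and the steps were tested on simulated data. MIR211 was under the filter, so its CPM were compared by exact permutation of treatment within a line and its pooled counts by exact conditional intervals. The comparison of the lines was selected on its outcome for MIR204 and is given without a test. Tables were made with Python 3.11.15, pandas 2.3.3 and scipy 1.17.1, hairpins aligned with biopython 1.88 and drawn values plotted with matplotlib 3.10.9.

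The 12 libraries held between 35070 and 122792 expected counts. Between replicates of a group, the chi-square per degree of freedom was between 2.51 and 32.1 over 12 pairs, so libraries varied by more than counting error, and the biological coefficient of variation in edgeR was 21.6%. A375-BIR DMSO replicate 3 stood apart, at 29.4 and 32.1 against replicates 1 and 2, which gave 2.51 against each other. Without it 46 precursors were called for dabrafenib in A375-BIR, in place of 36. Named besides the members were their neighbours, precursors with the seed of miR-204-5p, the 5 most and 3 least like MIR204, the members of the lists, up to 3 called precursors without overlap at each end of the dabrafenib comparisons, and the 5 with the most counts. Alternatives were DESeq2's size factors, total counts, a wider filter (1 CPM reached in 3 libraries), no filter, the Wald test of DESeq2 1.42.0, the libraries compared alone, the replicate number as a block, MIR204 and MIR211 summed, the rRNA-like rows left out and each library left out. Chosen after the data were seen were the wider filter together with the block and leaving out rows like 45S pre-rRNA. Libraries of the same number in A375 in DMSO and A375-BIR in DMSO deviated together (correlations 0.105, 0.219 and 0.303), from the data and not from the labels. Other pairs of groups had at least 1 correlation under 0.1.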

Additional observations from a re-analysis of the deposited data

Results flagged for a closer look

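The direct test of the difference in dabrafenib response between A375 and A375-BIR, edgeR's quasi-likelihood test, singled out 5 named precursors, and MIR204 was not among them. The log2 difference was 0.89 for MIRLET7B (0.95 in A375 and 0.06 in A375-BIR, FDR = 0.0281) and -1.27 for MIR146A (-0.71 and 0.56, FDR = 0.0226). It was 1.24 for MIR663A (4.21 and 2.97, FDR = 0.0226), 1.65 for MIR3648-1 (3.34 and 1.69, FDR = 0.0110) and 1.64 for MIR3648-2 (3.32 and 1.69, FDR = 0.0110). MIR3648-1 and MIR3648-2 hold nearly the same counts (1053 and 1048 in all) and are not separate results. With total counts in place of TMM the difference was 0.41 for MIRLET7B (FDR = 0.188) and 0.77 for MIR663A (FDR = 0.162), which no longer passed, and the other 3 passed. With DESeq2's size factors MIRLET7B alone did not pass (0.77, FDR = 0.172). Without the rRNA-like rows neither MIR146A (-1.38, its FDR just over the threshold) nor MIRLET7B (0.81, FDR = 0.232) passed in edgeR, and without rows like 45S pre-rRNA MIR146A passed (-1.43, FDR = 0.0245) and MIRLET7B did not (0.75, FDR = 0.230).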

How the results depend on the processing

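MIR204 was higher in dabrafenib in A375 past the threshold in all 23 alternatives, with log2 fold changes from 1.31 to 1.87, and from 1.52 to 2.08 with a library left out. In A375-BIR it passed in 5 of 23: with the wider filter (0.94), with MIR211 added (1.27) and without 1 of 3 libraries, the range with a library left out being 0.62 to 1.48. The difference between the lines passed in none of its 22 alternatives in edgeR or DESeq2 (0.19 to 0.67, and 0.36 to 1.22 with a library left out, FDR from 0.220 to 0.9998). The line difference of MIR204 in dabrafenib was 3.84 with total counts and 4.02 to 4.88 with a library left out, highest without A375-BIR dabrafenib replicate 3. The log2 ratio of MIR211 in A375 was 2.43 with total counts and 2.43 to 3.37 with a library left out. Its line difference in dabrafenib was 0.78 and 0.76 to 1.5, and its difference in response 0.65 to 1.58, each lowest without A375 dabrafenib replicate 3. In DMSO its line difference ran from -0.32 to 0.56 with a library left out. The exact permutation p of MIR211 over both lines was at or near the smallest its arrangements allow in each setting (0.005 to 0.01), so it cannot show how stable the result is.

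With the replicate block MIR204 was at 1.84 in A375 (FDR = 6.38e-04 in edgeR), 1.16 in A375-BIR (FDR = 0.0869) and 0.67 for the difference (FDR = 0.621), and line differences were 3.65 and 4.33. The wider filter with the block, chosen after the data were seen, gave MIR204 1.40 and 0.95 (FDR = 0.0683, against 0.0434 without the block) and MIR211 2.58 (FDR = 0.0228) and 1.61 (FDR = 0.328). The block changed no other call of the members.

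Of all precursors, 36 were called for dabrafenib in A375-BIR, 19 with only those libraries fitted and 20 to 46 with a library left out (20 and 22 without A375-BIR DMSO replicate 1 and 2). For the difference in response 6 were called, 34 having p under 0.05 unadjusted, against 0 in edgeR without the rRNA-like rows (19 at p under 0.05 unadjusted), 5 with DESeq2's Wald test, 2 without rows like 45S pre-rRNA and 3 to 6 with a library left out (3 without A375 DMSO replicate 1, A375 dabrafenib replicate 1 or 2). The causes were not tested. Depth limits MIR211, at 0 to 9 counts per library, and target mRNA and protein were not analysed here.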
